A study of Mus musculus with 6 samples.

Results

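The genes of growth factor signalling through receptor tyrosine kinases were examined in the hearts of *db/db* mice given an engineered form of fibroblast growth factor 1. They are the genes whose symbols begin with the letters of FGF, IGF and PDGF ligands and receptors, VEGF ligands, ephrins or Eph receptors. Symbols of the EGF receptor family, of Ras regulators, MAP kinases, PI3K, Akt and adaptor genes were taken too. So were those of the feedback inhibitors Dusp, Spry and Spred and of protein tyrosine phosphatases (Ptpn, Ptpr). The spelling of the symbol chose the genes and no measured value was used, and 41 of the 4132 genes analysed here matched. Hearts were taken from male *db/db* mice (lepr-/-, on the C57BLKS/J background), which lack a working leptin receptor and become obese and diabetic, so both groups carried the mutation. The treated group received human FGF1ΔHBS intraperitoneally at 0.5 mg/kg every other day for 16 weeks, starting at 10 weeks of age, and the vehicle group received saline. FGF1ΔHBS is FGF1 with a mutated heparan sulfate binding site and a lowered mitogenic activity. Each group held 3 mice, aged 26 weeks by the labels, and no lean mouse was in the comparison, so the values compare treated with untreated diabetic hearts only.

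FGF ligands bind receptor tyrosine kinases at the cell surface, usually with heparan sulfate as a co-receptor. The receptor phosphorylates docking proteins, which recruit adaptors and the phosphatase SHP2, and guanine nucleotide exchange factors then load Ras with GTP. Ras feeds the cascade of MAP kinases and PI3K feeds Akt, while Ras GTPase-activating proteins, Sprouty and Spred proteins and phosphatases limit the signal. In the heart these routes are known for growth of cardiomyocytes, survival and the upkeep of blood vessels. Transcript levels do not show how far a kinase was phosphorylated.

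The symbols took in some genes by spelling alone. *Fgfr1op* encodes a centrosomal protein, not an FGF receptor, and *Spryd3* a protein with a SPRY domain, not a Sprouty inhibitor. The genes of the FGF receptors themselves, of ERK1 and ERK2 and of their kinases MEK1 and MEK2 were not analysed here. The levels are FPKM as deposited, that is, fragments scaled by transcript length and by the size of the library, so levels of different genes can be set side by side. The test was limma on log2(FPKM + 1), run on genes whose mean over the 6 mice reached 1 FPKM, with Benjamini-Hochberg adjustment over all 2041 genes tested. Fold changes on this scale come out too small for genes at low levels.

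Of the 41 genes, 30 reached 1 FPKM and were tested, which is 73.2% of them, and 49.4% of all genes reached it. *Tnnt2* and *Actc1*, the cardiomyocyte markers analysed, summed to between 8646 and 10310 FPKM in every mouse, as the label heart requires. Vehicle replicates 2 and 3 were the least alike of all libraries, with a correlation of 0.939 between their log2 values. In vehicle replicate 2 the FPKM of the genes analysed summed to 152340, against 215805 to 232837 elsewhere, and *mt-Co2* was listed at 0 there alone. FPKM do not give the depth, but the steps between low values put the deepest, vehicle replicate 2, at 1.21 times the shallowest.

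Promoter sequences from RefSeq (GRCm38.p6) are shown for 3 of the genes. Epha2 and Rasgrp2 were the receptor and the exchange factor with the smallest p-values below, and Ptpn11 was the most highly expressed phosphatase, with no clear difference. Each run is the 250 bases before the transcription start, read 5′ to 3′ on the strand of the gene. Capitals in Epha2 mark the cyclic AMP response element (CRE, TGACGTCA), which CREB and ATF factors bind. Capitals in Rasgrp2 mark the ETS core with its flank (CCGGAAG), a motif of the ETS factors that ERK can phosphorylate. In Ptpn11 the ETS motif comes first and the CRE after it.
Epha2, chr4:141300971-141301220, plus strand: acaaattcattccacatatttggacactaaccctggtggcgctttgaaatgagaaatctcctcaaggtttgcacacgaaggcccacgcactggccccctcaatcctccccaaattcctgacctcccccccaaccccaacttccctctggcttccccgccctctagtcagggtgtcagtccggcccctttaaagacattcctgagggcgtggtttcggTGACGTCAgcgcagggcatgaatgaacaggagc
Rasgrp2, second of its promoters, chr19:6401455-6401704, plus strand: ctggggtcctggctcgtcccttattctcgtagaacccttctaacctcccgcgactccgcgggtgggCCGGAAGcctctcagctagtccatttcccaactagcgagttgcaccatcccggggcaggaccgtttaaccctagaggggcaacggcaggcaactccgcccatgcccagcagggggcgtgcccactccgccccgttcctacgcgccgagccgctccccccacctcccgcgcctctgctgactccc
Ptpn11, chr5:121191398-121191647, minus strand: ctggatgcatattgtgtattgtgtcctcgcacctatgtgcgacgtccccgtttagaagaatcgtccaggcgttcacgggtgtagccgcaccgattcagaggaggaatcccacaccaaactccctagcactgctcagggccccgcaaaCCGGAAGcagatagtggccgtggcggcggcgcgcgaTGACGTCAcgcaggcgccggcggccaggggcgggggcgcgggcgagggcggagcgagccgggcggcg
RefSeq gave a promoter for 32 of the 41 genes, 44 promoters in all, and the 300 bases from 250 before to 50 after each start were searched on both strands for 6 motifs. The CRE was in 2 of the 44, those of *Epha2* and *Ptpn11*, and in 1.79% of all 32851 promoters. The ETS motif was in 4 (*Akt1s1*, *Map3k11*, *Ptpn11* and *Rasgrp2*) and in 8.86% of all promoters. The first promoter of *Rasgrp2*, not printed, held none of the motifs searched. The AP-1 motif (TGACTCA), the target of Fos and Jun proteins, was in 3 (*Map3k10*, *Ptprh* and *Shc4*) and in 5.20% of all. The E-box (CACGTG) was in 2, those of *Mapk12* and *Rasgrf2*, and in 7.15% of all promoters. The NBRE (AAAGGTCA), the motif that the orphan receptor Nur77 binds as a monomer, was in 1, that of *Map2k4*, and in 1.51% of all. The forkhead motif (GTAAACA) was also in 1, that of *Ptprh*, and in 3.65% of all. A match of letters does not show that a factor bound there.

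No gene of the 41 passed an adjusted p-value of 0.05 by limma, and 0.0980% of all genes tested, that is 2, did. An unadjusted p-value under 0.05 was found for 6 of the 30 (20.0%), of which 1 was higher and 5 were lower with FGF1ΔHBS. Among all genes tested 17.1% met that rule, 7.10% higher and 10.0% lower, so the share of the signalling genes lay close to the background. In 10 of the 30 (33.3%) the mice of the groups did not overlap, with 2 higher and 8 lower. The background was 24.3% of all genes tested, with 10.7% higher and 13.6% lower. The log2 fold change was below 0 in 22 of the 30 (73.3%) and in 54.8% of all genes, with medians of -0.09 and -0.02. With median ratio scaling, quantile normalization and a correction for GC content, 66.7%, 60.0% and 63.3% of the 30 lay below 0, against 49.0%, 48.4% and 49.6% of all genes tested. With TPM scaling, which lowered the median of all genes to -0.26, 93.3% of the 30 and 87.9% of all genes did.

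**Figure D1:**
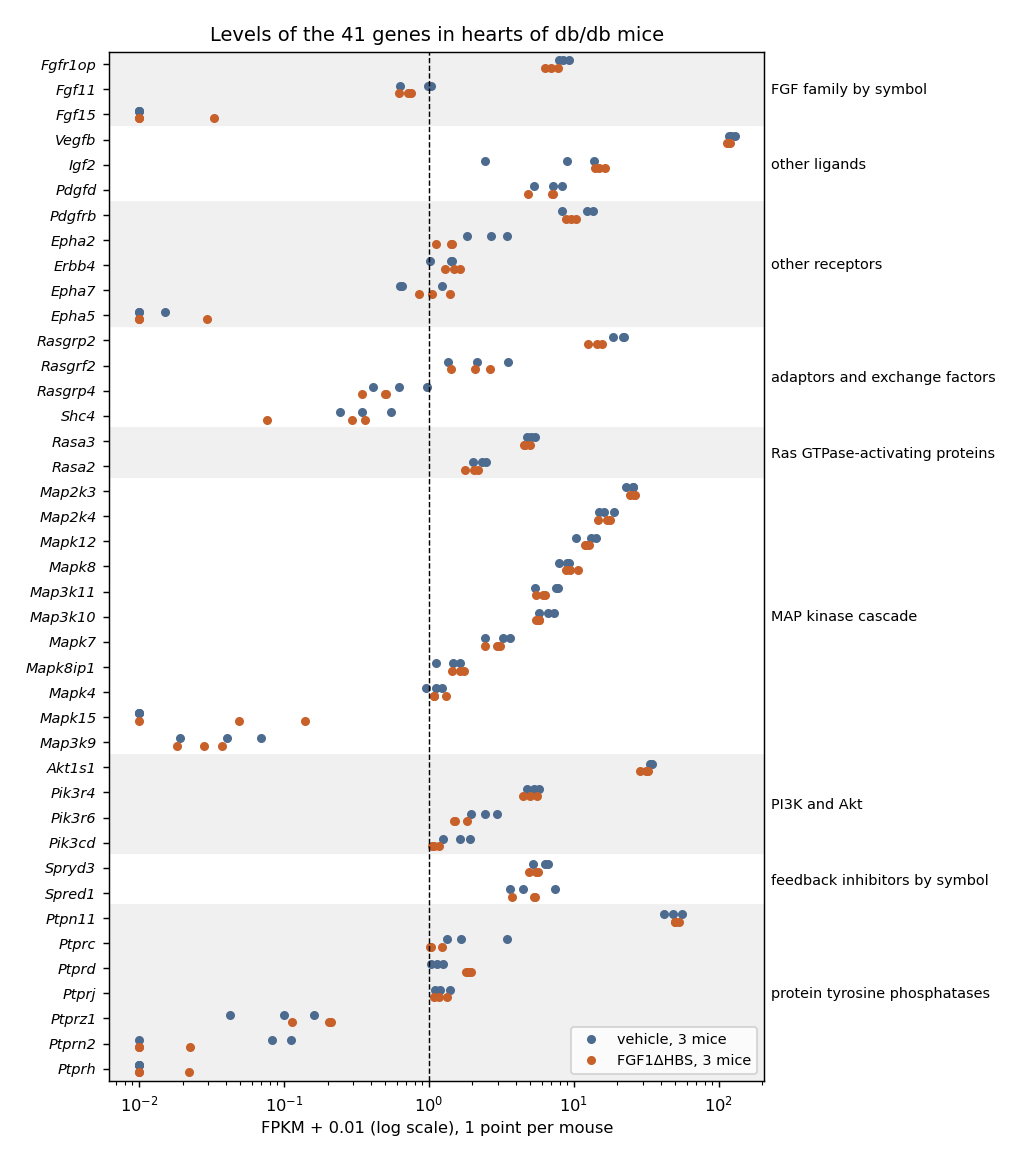
FPKM + 0.01 of the 41 genes in each mouse on a log axis, grouped by role, with vehicle in blue and FGF1ΔHBS in orange and a dashed line at 1 FPKM. *Vegfb* sits highest, at 115 to 129 FPKM, and most points of the groups lie on each other, while those of *Rasgrp2*, *Epha2* and *Ptprd* stand apart.

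Levels ran over several orders of magnitude, as the plot of all 41 genes shows. A mean of at least 10 FPKM was reached by 9 genes, 21 lay between 1 and 10, 5 between 0.1 and 1, and 6 lay under 0.1. *Vegfb*, a ligand of VEGF receptor 1 that is abundant in heart muscle, led with a mean of 119.6 FPKM. *Ptpn11* (SHP2) followed at 49.7, then *Akt1s1* (PRAS40, an inhibitor of mTORC1 that Akt phosphorylates) at 32.5 and *Map2k3*, which activates p38, at 25.1. The 9 also held *Rasgrp2*, *Map2k4*, *Mapk12*, *Igf2* and *Pdgfrb*, at means of 17.6, 16.5, 12.4, 11.8 and 10.5 FPKM.

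Among FGF family symbols, *Fgf11* and *Fgf15* were the ligands analysed and neither reached 1 FPKM. *Fgf11*, whose product stays inside the cell, was at 1.02, 0.977 and 0.627 FPKM in vehicle replicates 1 to 3 and at 0.613, 0.740 and 0.707 FPKM with FGF1ΔHBS. The highest treated mouse exceeded the lowest vehicle mouse, so the groups overlapped. *Fgf15*, an endocrine FGF made in the ileum, was listed at 0 in 5 mice and at 0.0232 FPKM in FGF1ΔHBS replicate 1. *Fgfr1op* was at 8.37, 7.94 and 9.27 FPKM with vehicle and at 7.80, 6.96 and 6.29 FPKM with FGF1ΔHBS. Every treated mouse lay below every vehicle mouse. Its log2 fold change came to -0.25 (SE 0.10), and limma gave an adjusted p of 0.269.

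Of the other ligands, *Igf2* had the largest difference of all 30 genes tested. It encodes insulin-like growth factor 2, a growth factor that is imprinted and most abundant before birth. Its level was 8.99, 13.7 and 2.42 FPKM with vehicle and 14.1, 14.9 and 16.5 FPKM with FGF1ΔHBS. The treated mice were close together and above every vehicle mouse, but vehicle replicate 2 was just under them and vehicle replicate 3 far below. The log2 fold change came to 1.02 (SE 0.48), and limma gave an adjusted p of 0.334. Without vehicle replicate 3 it was 0.41 (adjusted p = 0.163 by limma, in a range from 0.0186 with TPM scaling to 0.555 over the alternatives). In that mouse *Dcn*, the fibroblast marker analysed, was also lowest, at 154 FPKM against 284 and 288 with vehicle and 368 to 431 with FGF1ΔHBS, and its part in the result was not tested. Exons of *Igf2os* and of the transcript Gm49394 cover 64.5% of the exon bases of *Igf2*, so its reads may be shared with them. *Vegfb* was at 129, 118 and 121 FPKM with vehicle and at 119, 117 and 115 FPKM with FGF1ΔHBS, with overlap. Its log2 fold change of -0.07 had a 95% confidence interval from -0.21 to 0.08. *Pdgfd*, a ligand of PDGF receptor beta, was between 5.28 and 8.30 FPKM with vehicle and between 4.85 and 7.12 FPKM with FGF1ΔHBS.

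*Epha2* (chromosome 4 from 141301240 to 141329384, plus strand, GRCm38), the Eph receptor whose promoter with a CRE is printed above, was the receptor with the largest difference. Eph receptors are tyrosine kinases that ephrins on neighbouring cells activate, and EphA2 is known in epithelium and vessels. Its level was 2.66, 3.45 and 1.83 FPKM with vehicle and 1.12, 1.42 and 1.43 FPKM with FGF1ΔHBS. All treated mice lay below the lowest vehicle mouse, vehicle replicate 3. The means were 2.65 ± 0.81 and 1.32 ± 0.18 FPKM (SD, n = 3), and the log2 fold change came to -0.63 (SE 0.17). With limma the adjusted p was 0.143, and 0.0273 without vehicle replicate 3, where the log2 fold change was -0.80. Over the alternatives the limma adjusted p ranged from 0.025 with TPM scaling to 0.354. Of the endothelial markers, *Esam* was lower with FGF1ΔHBS (34.3 ± 3.74 against 27.0 ± 1.96 FPKM, SD, n = 3). *Tie1* (18.7 ± 6.21 against 14.4 ± 2.62 FPKM) and *Emcn* (18.9 ± 7.66 against 19.5 ± 6.06 FPKM) overlapped, *Emcn* with the higher mean in treated mice. The sum of the markers overlapped too, at 51.6 to 83.2 FPKM with vehicle and 50.0 to 71.0 with FGF1ΔHBS. Their part in the result was not tested. In these bulk samples fewer cells of a type and less RNA per cell cannot be told apart.

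*Pdgfrb*, the PDGF receptor of pericytes and fibroblasts, was at 13.5, 12.3 and 8.34 FPKM with vehicle and at 9.55, 8.84 and 10.3 FPKM with FGF1ΔHBS. Vehicle replicate 3 lay below all treated mice and the other vehicle mice above them. The log2 fold change of -0.21 had a 95% confidence interval from -0.59 to 0.18, and leaving out a mouse moved it between -0.40 (without vehicle replicate 3) and -0.08 (without vehicle replicate 1). *Acta2*, another mural marker, was at 10.3 to 14.1 FPKM with vehicle and at 17.5 to 27.3 FPKM with FGF1ΔHBS, so *Acta2* was higher in all treated mice and *Pdgfrb* was not. *Erbb4*, the receptor of neuregulin on cardiomyocytes, was between 1.01 and 1.44 FPKM with vehicle and between 1.29 and 1.62 FPKM with FGF1ΔHBS. *Epha7* was at 0.640, 1.23 and 0.619 FPKM with vehicle and at 1.38, 0.847 and 1.04 FPKM with FGF1ΔHBS. *Epha5* did not exceed 0.0194 FPKM in any mouse.

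*Rasgrp2* had the smallest p-value of the 30 genes tested. It encodes CalDAG-GEFI, an exchange factor that calcium and diacylglycerol switch on and that activates Rap1, best known in platelets. It lies on chromosome 19 from 6399340 to 6415216 on the plus strand of GRCm38. Its level was 22.3, 21.8 and 18.6 FPKM with vehicle and 15.7, 14.5 and 12.4 FPKM with FGF1ΔHBS. The highest treated mouse lay below the lowest vehicle mouse, which was replicate 3. The means were 20.9 ± 2.01 and 14.2 ± 1.64 FPKM (SD, n = 3), a ratio of 0.68. The log2 fold change came to -0.53 (SE 0.11), with a 95% confidence interval from -0.78 to -0.27, and limma gave an adjusted p of 0.116. Without vehicle replicate 3 it was -0.61, and the limma adjusted p was 0.0302, within a range from 0.0302 to 0.347 over the alternatives. The two-sided exact permutation test gave p = 0.1, the smallest that 3 mice against 3 allow, here and for the other genes without overlap. *Hbb-bt*, the erythroid marker analysed, was at 202, 397 and 192 FPKM with vehicle and at 204, 166 and 118 FPKM with FGF1ΔHBS, with overlap, and its part in the result was not tested.

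The other exchange factors and adaptors showed no such separation. *Rasgrf2*, which activates Ras and Rac, was at 3.52, 2.13 and 1.35 FPKM with vehicle and at 2.07, 1.41 and 2.64 FPKM with FGF1ΔHBS. Vehicle replicates alone spanned the whole treated range, and the 95% confidence interval of its log2 fold change of -0.10 ran from -0.71 to 0.50. *Rasgrp4*, known from mast cells, was between 0.405 and 0.968 FPKM with vehicle and between 0.335 and 0.499 FPKM with FGF1ΔHBS. *Shc4*, an adaptor of the Shc family, did not exceed 0.536 FPKM. Of the Ras GTPase-activating proteins, *Rasa3* was at 5.04 ± 0.31 FPKM with vehicle and at 4.70 ± 0.25 FPKM with FGF1ΔHBS (SD, n = 3). *Rasa2* was at 2.27 ± 0.24 and 1.98 ± 0.21 FPKM, and the mice overlapped in both genes.

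**Figure D2:**
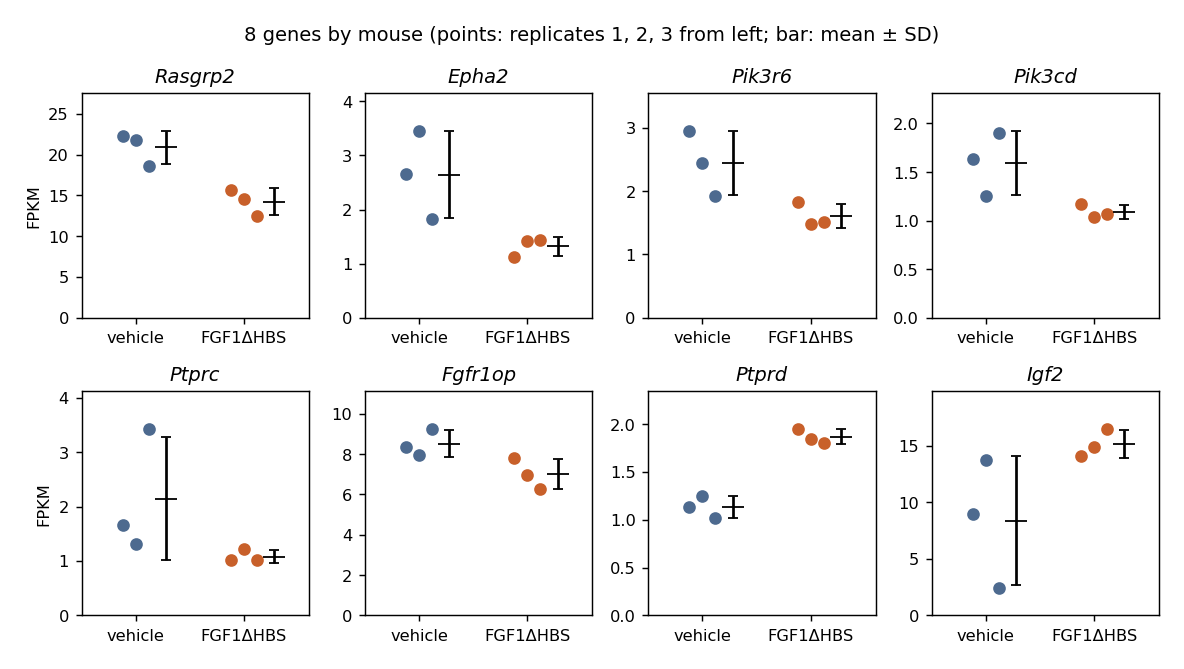
FPKM of 8 genes in each mouse, replicates 1 to 3 from left to right, vehicle in blue and FGF1ΔHBS in orange, with the mean and SD in black and each axis starting at 0. All 8 come from the 10 of the 30 genes tested in which the groups did not overlap, against 24.3% of all genes tested. Vehicle replicate 3 sits far from the other vehicle mice in *Igf2* (2.42 FPKM) and *Ptprc* (3.43 FPKM).

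The MAP kinase cascade was the largest group, with 11 genes, and 0 of the 9 tested had an unadjusted p-value under 0.05 by limma. Of all genes tested 17.1% had such a p-value, and 9 genes are too few to set against that share. The log2 fold changes ran from -0.18 to 0.14, with 5 below 0 and a median of -0.01. *Map2k3* was at 22.9, 25.5 and 25.7 FPKM with vehicle and at 25.9, 24.6 and 26.3 FPKM with FGF1ΔHBS. Its log2 fold change of 0.05 had a 95% confidence interval from -0.12 to 0.22. *Map2k4*, which activates JNK and p38 and whose promoter held the NBRE, was at 14.9, 16.0 and 18.9 FPKM with vehicle and at 17.7, 17.0 and 14.7 FPKM with FGF1ΔHBS. Treated mice lay on both sides of the vehicle mean, and the interval of its log2 fold change of -0.01 ran from -0.27 to 0.25. Of the MAP kinases, *Mapk8* (JNK1) had a log2 fold change of 0.14, *Mapk12* (p38 gamma) one of -0.02, *Mapk7* (ERK5) one of -0.09 and *Mapk4* (ERK4) one of 0.04, all with overlap. *Mapk8ip1*, which encodes the JNK scaffold JIP1, had one of 0.12 and overlapped too.

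The mixed-lineage kinases, which start the JNK cascade, were the members of this group at the lower end. *Map3k10* was at 6.61, 7.24 and 5.78 FPKM with vehicle and at 5.73, 5.70 and 5.43 FPKM with FGF1ΔHBS. The groups just missed each other, and the log2 fold change of -0.18 came with an adjusted p of 0.376 in limma. It ran from -0.44 with TPM scaling to -0.06 with GC correction, and was -0.12 without vehicle replicate 2. *Map3k11* had a log2 fold change of -0.17 with overlap, vehicle replicate 3 being lowest of the 6 mice at 5.42 FPKM, and leaving out a mouse moved it between -0.31 and -0.09. Exons of neighbouring genes cover 14.8% of the exon bases of *Map3k10* and 11.8% of those of *Map3k11*. *Map3k9* did not exceed 0.0591 FPKM in any mouse. *Mapk15* was listed at 0 in all vehicle mice and in FGF1ΔHBS replicate 1, and at 0.131 and 0.0389 FPKM in the other treated mice.

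All 4 genes of the PI3K and Akt group had log2 fold changes below 0, of which 2 had an unadjusted p-value under 0.05, and the mice of 3 did not overlap. Of all genes tested 54.8% lay below 0, 17.1% had such a p-value and 24.3% did not overlap, and 4 genes are too few to set against these shares. *Pik3r6*, a regulatory subunit of PI3K gamma that couples the kinase to G protein signals, was at 2.95, 2.44 and 1.93 FPKM with vehicle and at 1.83, 1.48 and 1.51 FPKM with FGF1ΔHBS. The lowest vehicle mouse, replicate 3, lay just above the highest treated mouse. The log2 fold change came to -0.39 (SE 0.13), and limma gave an adjusted p of 0.206. *Pik3cd*, the catalytic PI3K delta subunit that leukocytes use, was at 1.63, 1.25 and 1.90 FPKM with vehicle and at 1.17, 1.03 and 1.07 FPKM with FGF1ΔHBS. Here vehicle replicate 3 was the highest mouse. Its log2 fold change came to -0.31 (SE 0.12), and limma gave an adjusted p of 0.275. *Akt1s1* was at 33.6, 33.9 and 34.8 FPKM with vehicle and at 32.6, 31.5 and 28.8 FPKM with FGF1ΔHBS. The treated mice were all lower, by a log2 fold change of -0.14 (95% confidence interval from -0.30 to 0.02). It was -0.03 with GC correction, -0.38 with TPM scaling and -0.09 without FGF1ΔHBS replicate 3. *Pik3r4*, the subunit that serves the class of PI3K in autophagy and endosomes, overlapped, with a log2 fold change of -0.06 that was just above 0 with quantile normalization and without FGF1ΔHBS replicate 3.

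The feedback inhibitor *Spred1*, which holds back Raf activation, varied widely within both groups. It was at 7.41, 4.44 and 3.62 FPKM with vehicle and at 5.29, 3.76 and 5.38 FPKM with FGF1ΔHBS. Its log2 fold change of -0.05 had a 95% confidence interval from -0.59 to 0.50, which leaves changes of either sign possible. *Spryd3* was at 5.19 to 6.58 FPKM with vehicle and at 4.91 to 5.67 FPKM with FGF1ΔHBS, with overlap.

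Of the protein tyrosine phosphatases, *Ptprd* was the only one of the 30 genes tested that was higher with FGF1ΔHBS at an unadjusted p-value under 0.05. It encodes a receptor phosphatase best known from synapses, and lies on chromosome 4 from 75941238 to 78211961 on the minus strand of GRCm38. Its level was 1.13, 1.24 and 1.02 FPKM with vehicle and 1.95, 1.85 and 1.81 FPKM with FGF1ΔHBS. The mice within each group lay close together and the groups were well apart. The means were 1.13 ± 0.11 and 1.87 ± 0.08 FPKM (SD, n = 3), a ratio of 1.65, and the log2 fold change came to 0.43 (SE 0.10). With limma the adjusted p was 0.116, in a range from 0.0799 to 0.568 (with TPM scaling) over the alternatives. *Dcn* and *Acta2* were also above all vehicle mice in every treated mouse, and their part in the result was not tested.

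*Ptprc*, which encodes CD45 of all leukocytes, was at 1.67, 1.32 and 3.43 FPKM with vehicle and at 1.01, 1.21 and 1.02 FPKM with FGF1ΔHBS. All treated mice were below all vehicle mice, and vehicle replicate 3 stood far above the rest. The log2 fold change of -0.54 came with an adjusted p of 0.298 in limma, and it was -0.26 without vehicle replicate 3. *Pik3cd* and *Rasgrp4*, which leukocytes also use, were highest in the same mouse, and *Pik3r6* was not. *Cd8a*, the other lymphocyte marker analysed, did not exceed 0.215 FPKM in any mouse, and no macrophage marker was analysed here.

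*Ptpn11*, which encodes SHP2, the phosphatase that carries the signal from FGF receptors to Ras, was at 41.6, 48.3 and 55.4 FPKM with vehicle and at 50.0, 49.6 and 53.2 FPKM with FGF1ΔHBS. The vehicle mice bracketed all treated mice, and the log2 fold change of 0.08 had a 95% confidence interval from -0.17 to 0.33. The log2 fold change was below 0 with TPM scaling and without vehicle replicate 1. The promoter of *Ptpn11* holds the CRE, as that of *Epha2* does, and the ETS motif, as the second promoter of *Rasgrp2* does. A link between motif and level was not tested. *Ptprj*, which encodes a phosphatase that acts on growth factor receptors, was at 1.10 to 1.39 FPKM with vehicle and at 1.07 to 1.32 FPKM with FGF1ΔHBS. The neural phosphatases *Ptprz1* and *Ptprn2* did not exceed 0.200 and 0.102 FPKM, and *Ptprh* was listed at 0 in all mice but FGF1ΔHBS replicate 3.

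**Figure D3:**
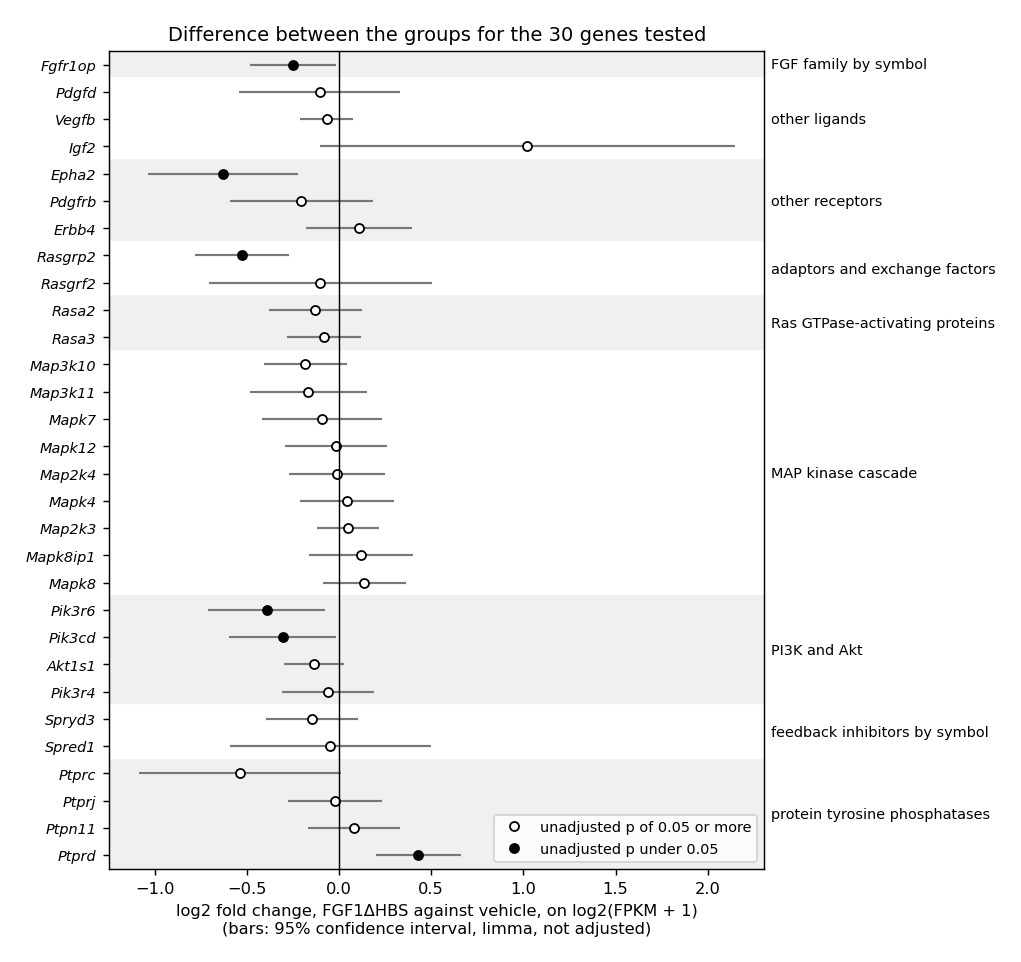
Log2 fold change of FGF1ΔHBS against vehicle on log2(FPKM + 1) for the 30 genes tested, grouped by role, with unadjusted 95% confidence intervals from limma and filled points for an unadjusted p-value under 0.05. The 9 genes of the MAP kinase cascade sit around 0, between -0.18 and 0.14, and the interval of *Igf2* is the widest.

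The spread between vehicle mice was larger than that between treated mice on the log2 scale in 25 of the 30 genes (83.3%) and in 64.5% of all genes tested. Vehicle replicate 3 was the lowest mouse in 9 of the 30 and the highest in 7. Vehicle replicate 1 was the lowest in 5 and the highest in 10, whereas vehicle replicate 2 was the lowest in 0 and the highest in 6. Vehicle replicates 1 and 3 thus lay at an end in 50.0% and 53.3% of the genes, against 39.0% and 42.7% of all genes tested. Of the tested ligands, receptors and phosphatases, *Pdgfrb*, *Pdgfd*, *Igf2*, *Epha2* and *Ptprd* were lower in vehicle replicate 3 than in the other vehicle mice. *Ptprc*, *Ptprj* and *Ptpn11* were higher there, and *Vegfb* and *Erbb4* lay between them. Other roles held both kinds, such as *Rasgrp2* and *Pik3r6* lower and *Pik3cd* and *Akt1s1* higher in that mouse.

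**Figure D4:**
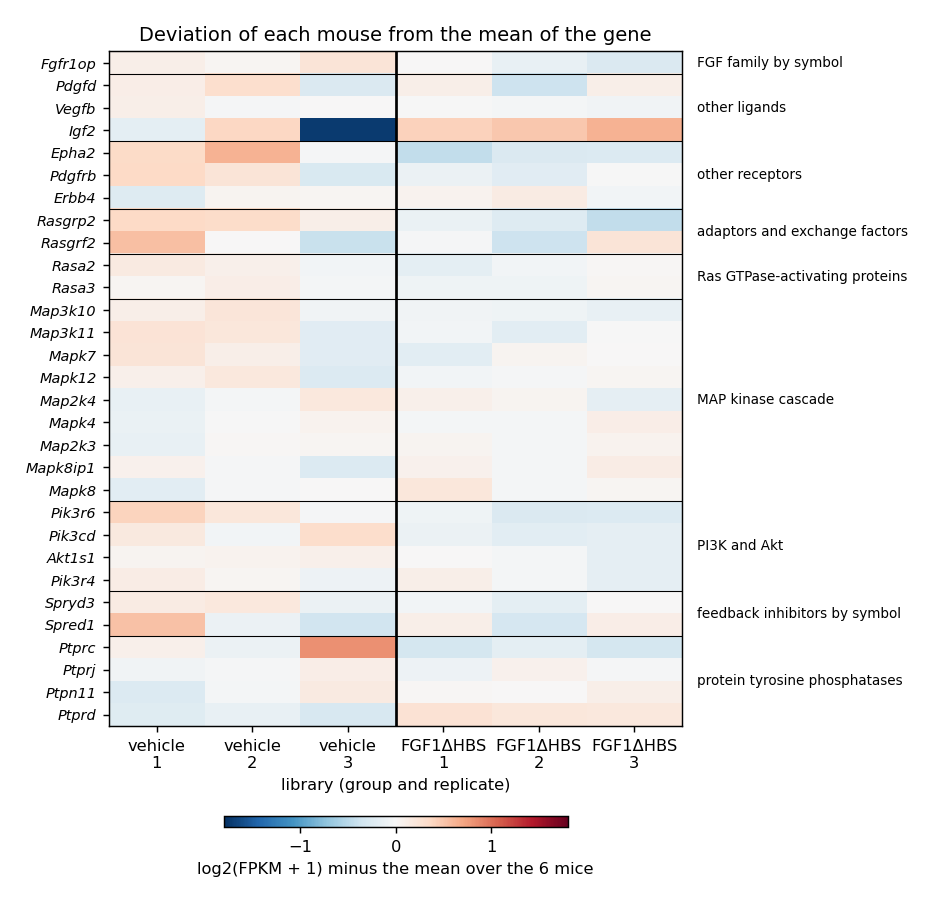
Deviation of each mouse from the mean of the gene over the 6 mice, in log2(FPKM + 1), for the 30 genes tested (rows, by role) and the 6 libraries (columns), from blue for lower to red for higher. The darkest cells belong to vehicle replicate 3, which was lowest for *Igf2* (2.42 FPKM) and highest for *Ptprc* (3.43 FPKM).

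Genes of the same routes that the symbols do not take were counted from lists of 6 kinds. Of 28 listed genes around Ras, Raf and ERK, 5 were analysed and tested, and 2 were lower at an unadjusted p-value under 0.05, a rule that 10.0% of all genes tested met, also for the lists below. They were *Nras* (7.88 ± 0.71 against 5.99 ± 1.17 FPKM, SD, n = 3, with overlap) and *Cblb*, a ubiquitin ligase that removes receptors (3.03 ± 0.36 against 2.27 ± 0.33 FPKM). Of 20 transcripts known to follow ERK activity, 4 were tested and 2 were lower. *Fos* fell from 5.64, 10.7 and 13.8 FPKM with vehicle to 0.890, 0.450 and 1.04 FPKM with FGF1ΔHBS (log2 fold change -2.56, adjusted p = 0.0441 by limma). The adjusted p of *Fos* lay above 0.05 with median ratio scaling (0.0587), quantile normalization (0.0612), GC correction (0.0579) and no filter (0.150). It did so too with the replicate block (0.127) and eBayes without trend (0.0507). TPM scaling aside, the limma adjusted p of *Fos* ranged from 0.00908 to 0.216 over the alternatives. TPM scaling, which divided vehicle replicate 2 by a smaller sum than the other mice, gave 9.98e-31. The spread of 3 mice a group cannot by itself give so small a value. Without vehicle replicate 2 the adjusted p-value of *Fos* was 0.125, and without FGF1ΔHBS replicates 1, 2 and 3 it was 0.216, 0.126 and 0.156. *Fosl2*, another AP-1 subunit, was at 3.26, 10.7 and 9.07 FPKM with vehicle and at 3.50, 2.99 and 2.97 FPKM with FGF1ΔHBS, with overlap. The rest of the 4 overlapped too, with log2 fold changes of -0.28 for *Elk3* and 0.14 for *Ier3*, which had the higher mean in treated mice. Of 25 genes around PI3K, mTOR and FoxO, 8 were tested and 1 was lower, *Mtor*, the kinase that *Akt1s1* restrains. *Mtor* was at 9.60 ± 0.22 FPKM with vehicle and at 8.04 ± 0.42 FPKM with FGF1ΔHBS (SD, n = 3, adjusted p = 0.173 by limma).

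Of 38 listed FGF co-receptors and genes of heparan sulfate, the sugar chain to which FGF1ΔHBS binds less, 6 were tested. At an unadjusted p-value under 0.05 by limma 1 was higher and 2 were lower, against 7.10% and 10.0% of all genes tested. *Sdc2*, a heparan sulfate proteoglycan, was at 15.9, 18.2 and 12.1 FPKM with vehicle and at 21.9, 19.9 and 22.9 FPKM with FGF1ΔHBS. *Sdc3* was at 11.3, 11.8 and 8.41 FPKM with vehicle and at 6.98, 5.92 and 7.32 FPKM with FGF1ΔHBS, and *Agrn*, which encodes agrin of the basement membrane, at 17.7 ± 2.60 and 12.5 ± 1.01 (SD, n = 3). These 3 were named for their small p-values, with *Sdc2* higher and the others lower, at adjusted p-values of 0.154, 0.116 and 0.119 by limma. The mice of the groups did not overlap in 3 of the 6 tested, against 24.3% of all genes tested, and 6 genes are too few to set against that share. *Ext1*, *Hs3st1* and *Sulf2*, which build or trim the chains, had log2 fold changes of -0.02, 0.04 and 0.01, with overlap. Of 50 other receptor tyrosine kinases and ligands, 4 were tested and *Nrp2*, a co-receptor of VEGF, was lower (5.72 ± 2.66 against 2.67 ± 0.58 FPKM, adjusted p = 0.276 by limma), with vehicle replicate 3 at 2.66 FPKM inside the treated range. Of 11 listed AMPK subunits, AMPK kinases and a deacetylase, the deacetylase gene *Sirt1* alone was tested, with a log2 fold change of 0.02, so no AMPK subunit was tested.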

How the data were processed

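RNA from hearts of 3 vehicle-treated and 3 FGF1ΔHBS-treated *db/db* mice was enriched with oligo(dT) and sequenced. The authors deposited FPKM values, 1 per gene and mouse, and these were used as deposited. The paper names Trimmomatic, and the submitters' processing notes name Bowtie 0.12.2, HISAT2 2.0, StringTie 1.3.0 and the build mm8. The gene positions, however, overlap those of GRCm38 (GENCODE M21) for 99.8% of genes, so GRCm38 was used for locations. The labels describe paired-end and the paper single-end reads, and the library protocol in the labels speaks of adipose tissue. Whether counting used strand is not given in the sources used here.

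Genes averaging 1 FPKM or more were compared on log2(FPKM + 1) with limma 3.58.1 in R 4.3.3 (lmFit, eBayes with trend), with all 6 libraries, no pairing and Benjamini-Hochberg adjustment over 2041 genes (threshold 0.05). The fit was tested on simulated data. A two-sided exact permutation test was run gene by gene. The table analysed here is only part of a transcriptome. The depth of each library is unknown, so no counting interval was given.

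The members, lists and tests were chosen with earlier results of these data known. Genes were named by a rule: FGF symbols, members with an unadjusted p-value under 0.05, the 2 most highly expressed of each role, the 3 largest differences in each direction and up to 3 genes per list. *Ptprc*, *Map3k10* and the remaining members were named to account for every gene. Other tested genes of some lists were named to show both directions. Alternatives were no filter, a pseudocount of 0.1, a 5 FPKM minimum, median ratio, quantile, TPM and GC-corrected values, other forms of eBayes, a replicate block and leaving out each mouse. No proteins were analysed here. Values of some listed genes are not reported here.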

Additional observations from a re-analysis of the deposited data

How the results depend on the processing

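*Rasgrp2* had an unadjusted p-value under 0.05 in all 16 alternatives and *Epha2* in all 15 that tested it, *Ptprd* in 14 of 15, *Pik3r6* in 11 of 15, *Fgfr1op* in 9 of 16 and *Pik3cd* in 4 of 15. Leaving out each mouse moved the number of the members at that threshold from 6 to between 3 and 9 and the number past the adjusted one to between 0 and 2, with 2 without vehicle replicate 3. With a minimum of 5 FPKM, which tested 16 of the members, 2 (*Fgfr1op* and *Rasgrp2*) had an unadjusted p-value under 0.05. Over all genes, leaving out a mouse gave between 0 and 84 adjusted calls by limma (84 without vehicle replicate 3) and between 231 and 496 unadjusted ones. Adjusted calls over all genes numbered 4 with a pseudocount of 0.1, 5 with robust eBayes, 1 each with median ratio scaling, quantile normalization, GC correction and eBayes without trend, and 68 with TPM. They numbered 0 without a filter (488 unadjusted), with the replicate block (269), without vehicle replicate 2 (270) and without FGF1ΔHBS replicate 2 (231). TPM scaling divided each mouse by its summed FPKM over the genes analysed, 152340 in vehicle replicate 2 and 215805 to 232837 elsewhere. It moved the median of all genes to -0.26 and of the members to -0.33, and 3 members passed the adjusted threshold (*Epha2*, *Igf2*, *Rasgrp2*). The genes higher among unadjusted calls were 145 of 349, against 192 of 354 after GC correction and 23 of 267 with TPM. The cause of these moves was not tested.

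The sign changed for small differences. With TPM, *Map2k3* was at -0.19, *Mapk8ip1* at -0.034 and *Ptpn11* at -0.16. With quantile normalization *Map2k4* was at 0.016, *Pik3r4* at 0.0048 and *Spred1* at 0.0042, with median ratio scaling *Map2k4* was at 0.017, and with GC correction *Vegfb* was at 0.048. Leaving out a mouse gave ranges of -0.00056 to 0.079 for *Map2k3*, -0.082 to 0.083 for *Map2k4*, -0.13 to 0.0051 for *Pik3r4*, -0.022 to 0.18 for *Ptpn11*, -0.33 to 0.14 for *Rasgrf2* and -0.23 to 0.20 for *Spred1*. The sign also changed in 6 of 16 alternatives for *Mapk12*, in 3 of 15 each for *Mapk4* and *Ptprj*, in 2 of 16 for *Pdgfd*, and in 1 each for *Mapk7*, *Mapk8* and *Erbb4*.

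Deviations of same-numbered mice correlated at -0.008, -0.159 and -0.217. As deviations from means of only 3 mice, they cannot show whether same-numbered mice were paired. With the replicate block 4 members had an unadjusted p-value under 0.05, as did 269 of all 2041 genes tested, and 0 members passed the adjusted threshold. Depth is unknown and 3 mice a group limit the precision. Differences of the median standard error of 0.11 (log2), and some well above it, could not be resolved. *Rasgrp2*, at -0.53 with an SE of 0.11, had an adjusted p of 0.116 by limma. The 11 members under 1 FPKM were not tested.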
